A study of Mus musculus with 30 samples.

Results

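The proteins of the cytosolic ribosome were followed as 89 genes of the 36103 in the count table, 54 of the large 60S subunit and 35 of the small 40S subunit. A gene was taken where its symbol was Rpl or Rps with a number (with an a, x, l or y ending where one exists), Rplp0, Rplp1, Rplp2 or Rpsa, and symbols ending in -ps were left out. By the annotation 5 of the 89 are pseudogenes that carry such a symbol, namely Rpl32l, Rpl6l, Rps3a2, Rps3a3 and Rps4l. RNA came from 5-week-old male mice with a whole-body knockout of Mtm1 (Mtm1-/y), a model of X-linked myotubular myopathy in which the lipid phosphatase myotubularin is missing, and from their wild-type (WT) littermates, all on a pure 129Pas background. There were 4 libraries of each genotype for gastrocnemius and for heart, 4 WT and 3 Mtm1-/y for diaphragm, and 3 WT and 4 Mtm1-/y for liver. The study's methods count these libraries as mice, and each is polyA RNA of a dissected organ, so every cell type of the organ is in it.

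The ribosome reads mRNA on its 40S subunit and joins amino acids on its 60S subunit. Most of its proteins are present in equal number, and their mRNAs share a pyrimidine-rich start, the 5′ terminal oligopyrimidine (TOP) tract, through which the mTORC1 kinase sets their translation. A few proteins have a paralogue that can take their place in certain tissues. The best known in striated muscle is Rpl3l, which replaces Rpl3 next to the peptidyl transferase centre as muscle matures.

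The libraries held 24873817 to 44289343 counts. Mtm1, the targeted gene, stood between 15.8 and 26.9 CPM (counts relative to the library total, after TMM scaling over the 30 libraries) among WT libraries and between 3.49 and 8.19 CPM among Mtm1-/y libraries, lower in each Mtm1-/y library than in any WT library. Markers of each organ were high in it, such as the 10 skeletal fibre markers at 139000 to 257000 CPM in sum in the gastrocnemius. The diaphragm libraries held 251 to 28300 CPM of the hepatocyte gene Alb, against 111000 to 154000 CPM in the liver libraries. WT heart library 4 stood apart from the other WT hearts, with 11.7% of its counts on mitochondrial genes against 16.1 to 17.2%.

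The 89 genes took 0.3039 to 0.4615% of the counts of a library. The authors counted uniquely aligned reads of 50 bases, and many ribosomal protein genes have processed pseudogenes of nearly the same sequence. Among the 13 members with under 25% of their mRNA's 50-base windows found in no other gene, the median level was 1.12 CPM. It was 5.85 CPM for the 18 members with 25 to 50% of such windows, 13.6 CPM for the 35 with 50 to 75%, and 40.2 CPM for the 23 above that. Over the 89 members Spearman's rho of the 2 measures was 0.42, a description across genes. Rps6, the substrate of the S6 kinases, had 464 counts over all libraries with 15.4% unique windows, and Rpl3 had 3990 counts with 32.9%. Rps3a1 had 412 counts while its pseudogene Rps3a3 had 50904, so those reads cannot be given to either gene with certainty. Rpl3l, with 240658 counts, shared no window with another gene. Rpl4 had the most counts of a member, 447169. Counts of a member are thus a part of its mRNA, and the levels below are compared between libraries rather than between genes. The members quoted here for their totals were chosen after their values were seen.

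**Figure D1:**
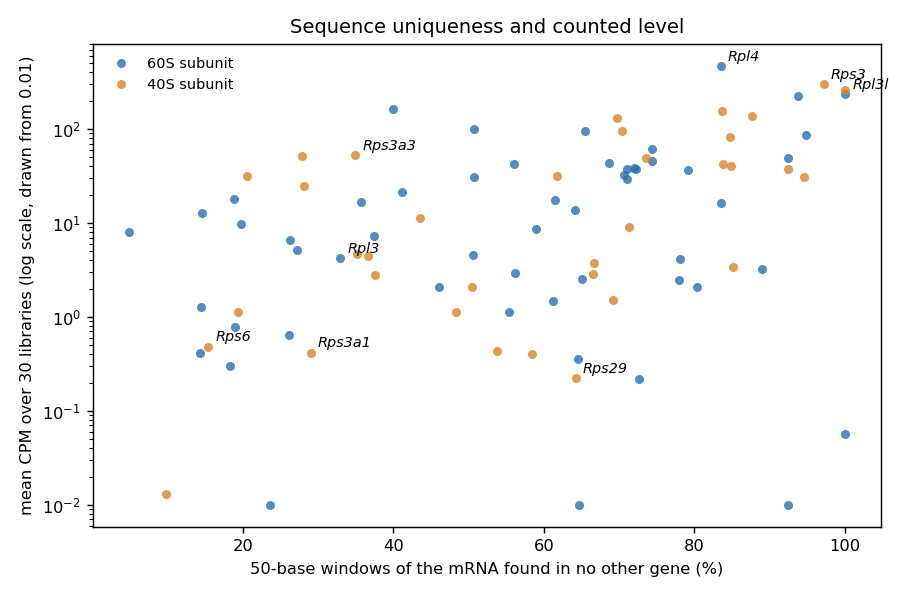
Mean level of each of the 89 ribosomal protein genes over 30 libraries (CPM, log scale, values under 0.01 drawn at 0.01) against the percent of 50-base windows of its mRNA found in no other annotated gene. Blue points are 60S and orange points 40S members. Members below 25% had a median of 1.12 CPM and those above 75% a median of 40.2 CPM.

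Start sites are shown for the members called in the gastrocnemius at a mean of at least 5 CPM, the 6 largest rises and both falls, because the pyrimidine tract is the feature that ribosomal protein mRNAs share. Of the 89 members 65 matched a RefSeq entry (GRCm38.p6), and the most upstream start of each was used. Each line gives 10 bases before the annotated start and 20 from it on, 5′ to 3′ on the strand of the gene, with the longest run of C and T in capitals.
Rplp2: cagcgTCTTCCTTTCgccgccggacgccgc
Rpl39: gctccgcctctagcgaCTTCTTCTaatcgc
Rps28: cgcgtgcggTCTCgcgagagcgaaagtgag
Rps21: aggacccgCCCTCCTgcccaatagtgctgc
Rps19: aaTCTCgcgagactcgacgcccgacttgtg
Rpl41: gggccggCTCggaagtgacgacaccgagca
Rpl15: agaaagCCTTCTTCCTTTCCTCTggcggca
Rpl3l: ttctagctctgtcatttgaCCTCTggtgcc
The windows are chr7:141447641-141447670 (plus strand) for Rplp2, chrX:37085203-37085232 (minus) for Rpl39, chr17:33824543-33824572 (minus) for Rps28 and chr2:180257369-180257398 (plus) for Rps21. Those of Rps19, Rpl41, Rpl15 and Rpl3l are chr7:24884582-24884611 (plus), chr10:128549149-128549178 (minus), chr14:18270967-18270996 (minus) and chr17:24727816-24727845 (plus). A run of at least 6 pyrimidines was present in 36 of the 65 member windows (55.4%) and in 28.5% of the windows of the 27025 genes in the table. Rpl15 had the longest of the 8, with 17 bases, Rplp2 had 10 and Rpl3l had 5. Counted from the annotated start, the runs of Rps19 and Rpl41 began at -8 and -3 and ended before the start, outside the mRNA. Those of Rpl39 and Rpl3l began at bases 7 and 10 of the transcript. Runs anywhere in the window were marked and counted, so a run in capitals is not by itself a TOP tract. The match describes the annotated start alone, and the start used in these tissues was not measured.

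In the gastrocnemius, a fast hindlimb muscle, most ribosomal protein genes had slightly higher values in Mtm1-/y than in WT mice, and few passed the test. Of 80 members tested 13 rose and 2 fell (edgeR's quasi-likelihood test, Benjamini-Hochberg adjusted p under 0.05 over all genes), or 18.8%, where 29.0% of all genes were called in this tissue (14.1% higher and 14.9% lower). By direction 16.2% of the members were called higher and 2.5% lower, so that the share called was near that of all genes for rises and below it for falls. The share depended on the level. Of the 51 tested members of at least 5 CPM over all libraries 14 were called (27.5%), 23.5% higher and 3.92% lower. Of the 29 under 5 CPM 1 was called (3.45%). The median log2 fold change was 0.16 over the 80 members and 0.02 over the 15456 genes tested, and 64 of the 80 values lay above 0 (80.0% against 51.8% of all genes). The libraries of the 2 genotypes did not overlap for 18 members (22.5%, against 30.5% of all genes). Of these 16 were higher (20%, against 13.8% of all genes) and 2 lower (2.5%, against 16.8%). A rise past 2-fold was called for 1 member, Rps27. The 9 members that were not tested had too few counts, namely Rpl10l, Rpl24, Rpl29, Rpl32l, Rpl38, Rpl39l, Rpl6l, Rps29 and Rps3a2.

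**Figure D2:**
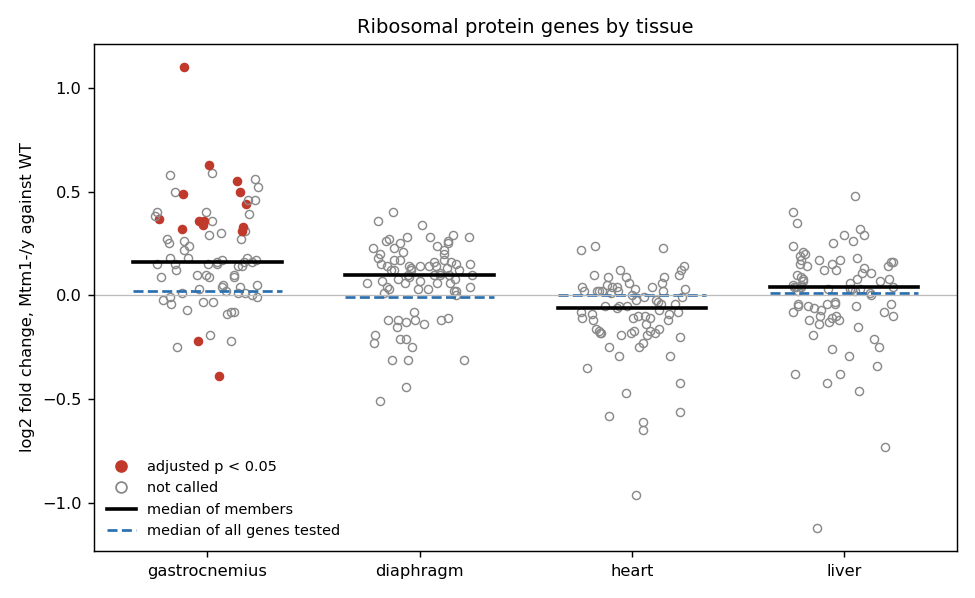
Log2 fold change of Mtm1-/y against WT for every ribosomal protein gene tested in each tissue, with filled red points for adjusted p under 0.05 (edgeR) and open grey points for the others. Black bars mark the members' median, with values of 0.16 (gastrocnemius), 0.10 (diaphragm), -0.06 (heart) and 0.04 (liver), and dashed blue bars mark the median of all genes tested.

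The stalk of the 60S subunit, built of Rplp0, Rplp1 and Rplp2, brings the elongation factors to the ribosome. Rplp2 stood at 35.6, 39.6, 31.3 and 52.2 CPM in WT and at 83.2, 49.0, 51.7 and 58.2 CPM in Mtm1-/y gastrocnemius. The groups overlapped, and library 1 of Mtm1-/y was far above the rest. By edgeR its fold change was 0.63 on the log2 scale (SE 0.19, adjusted p 0.033). Without that library it was 0.44 with an adjusted p of 0.069, and the call was also lost without WT library 1, 2 or 3 or Mtm1-/y library 4 (adjusted p of 0.05 to 0.085). Rplp0 had a log2 fold change of 0.16 (adjusted p 0.15) and Rplp1 one of 0.15 (adjusted p 0.32).

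Among 40S proteins Rps21 gave the smallest p. It was at 43.1, 48.0, 43.2 and 47.7 CPM in WT and at 69.5, 57.7, 62.7 and 62.7 CPM in Mtm1-/y libraries. Every Mtm1-/y library was above every WT library, and the gene rose by 0.49 on the log2 scale (SE 0.07, adjusted p 0.0013 by edgeR). Rps19, a protein of 40S maturation whose loss causes Diamond-Blackfan anaemia in people, averaged 29.7 ± 3.62 CPM in the 4 WT libraries and 39.8 ± 2.85 CPM in the 4 Mtm1-/y libraries (mean ± SD), a rise of 0.44 on the log2 scale (edgeR adjusted p 0.0079). Rps28 spanned 6.87 to 8.63 CPM among WT libraries and 9.12 to 12.2 CPM among Mtm1-/y libraries (log2 fold change 0.50, SE 0.13, edgeR adjusted p 0.018, and 0.052 or 0.054 without WT library 3 or 4). Rps20, of the head of the 40S subunit, spanned 35.7 to 41.5 CPM among WT and 43.5 to 52.2 CPM among Mtm1-/y libraries (log2 fold change 0.36, SE 0.08, edgeR adjusted p 0.011). In these 3 genes too the genotypes did not overlap. Rps27 was called at a log2 fold change of 1.1 (edgeR adjusted p 0.042), but at 0.12 to 0.519 CPM it rests on few counts. Its call was lost by DESeq2 (adjusted p 0.14) and without WT library 1, 2 or 4 or Mtm1-/y library 2 or 4 (adjusted p of 0.052 to 0.11). Of the 33 tested 40S members 7 were called higher, Rps27 among them (21.2%, against 14.1% of all genes), and 0 lower (against 14.9%).

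On the 60S side Rpl39, a small protein that lines the exit tunnel, stood at 12.8, 16.8, 12.5 and 14.5 CPM in WT and at 22.2, 17.7, 21.5 and 20.5 CPM in Mtm1-/y gastrocnemius. No library of either group reached the other group (log2 fold change 0.55, SE 0.11, edgeR adjusted p 0.0053). Rpl41, the smallest ribosomal protein, rose from 21.5 ± 1.68 to 27.5 ± 1.93 CPM (SD, n = 4 each), or by 0.37 on the log2 scale (SE 0.08, edgeR adjusted p 0.0079). Rps9, Rps26, Rpl23, Rpl27a and Rpl13a also rose, by 0.31 to 0.36 on the log2 scale, and are listed after their values were seen. Rps9 kept its call in 16 of 16 alternatives, and Rps26, Rpl23, Rpl27a and Rpl13a lost theirs in 4, 4, 6 and 7 of 16. Rpl15, a core protein of the large subunit, fell from 54.6 ± 4.10 to 46.3 ± 3.11 CPM (SD, n = 4 each). The log2 fold change of Rpl15 was -0.22 (SE 0.07, edgeR adjusted p 0.046). It stayed past the threshold in 5 of 16 alternatives, in which adjusted p ran from 0.04 to 0.12, and was lost without WT library 1, 2 or 4 or Mtm1-/y library 1, 2 or 3.

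**Figure D3:**
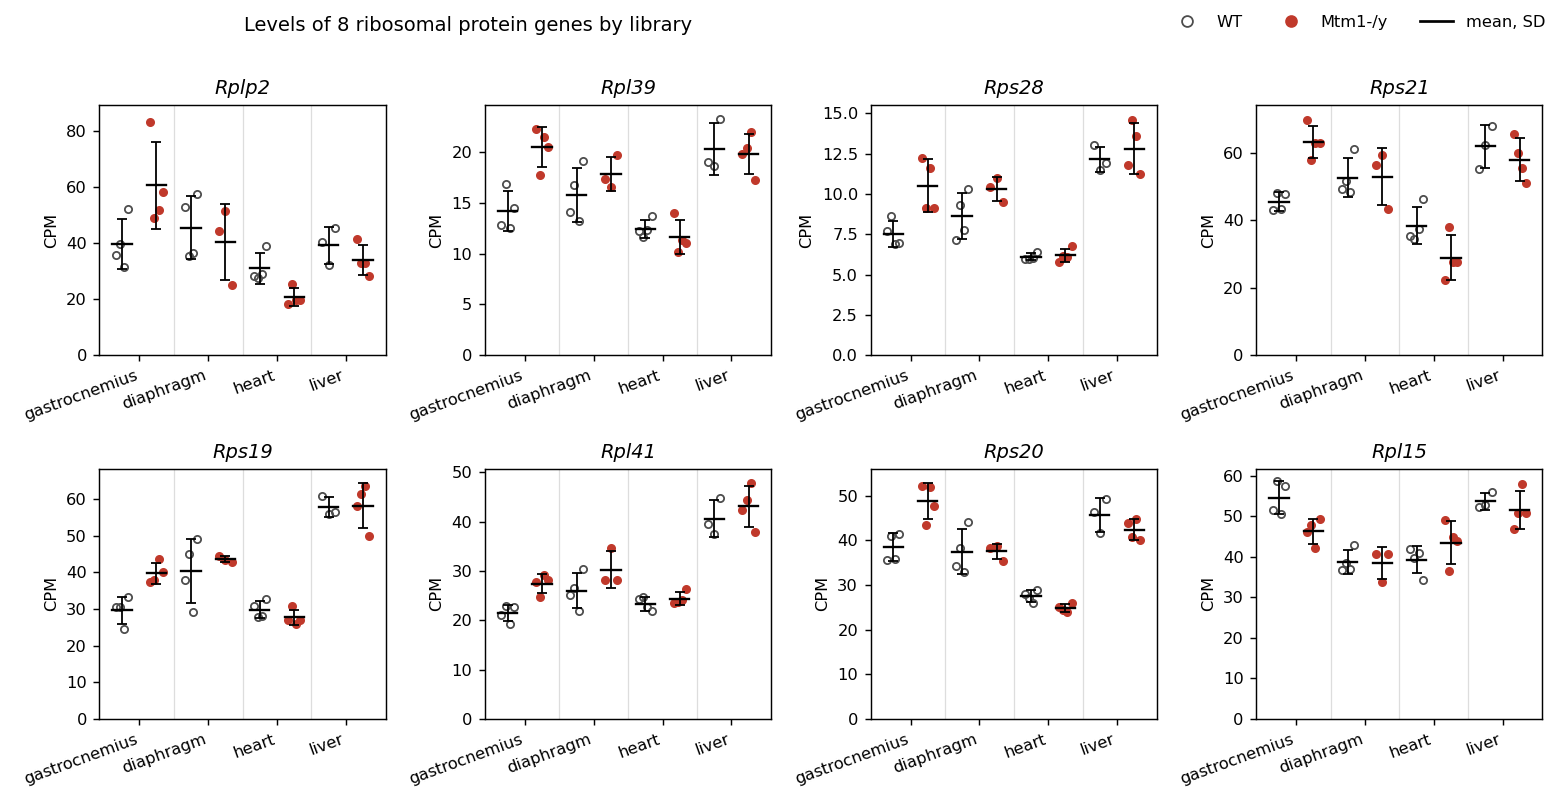
Level in CPM of the 7 called risers of at least 5 CPM that are described with values, and of Rpl15, in every library of the 4 tissues (open circles WT, red circles Mtm1-/y; bars, mean and SD; n = 3 or 4). In the gastrocnemius the genotypes are apart in all of them except Rplp2, and in the heart Rplp2 and Rps20 lie lower in Mtm1-/y with no overlap.

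Rpl3l (chr17:24727820-24736143, plus strand, mm10) was the member with the largest fall in the gastrocnemius. It stood at 496, 504, 492 and 628 CPM in the WT libraries and at 403, 380, 368 and 455 CPM in the Mtm1-/y libraries. The highest Mtm1-/y library was below the lowest WT library, and the log2 fold change was -0.39 (SE 0.10, edgeR adjusted p 0.016). In a fit of all 30 libraries, with their common spread, the value was -0.40 with an adjusted p of 0.41. Rpl3 itself (chr15:80077791-80091868, minus strand) stood at 3.32, 2.16, 2.11 and 2.20 CPM in WT and at 2.49, 2.13, 4.38 and 2.32 CPM in Mtm1-/y libraries. Those groups overlapped (log2 fold change 0.22, SE 0.27, adjusted p 0.56), and with 54 to 147 counts a library Rpl3 is measured poorly.

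The ratio of Rpl3l to Rpl3 counts within a library does not depend on the scaling between libraries. Its log2 was 7.77 ± 0.39 in WT and 7.20 ± 0.55 in Mtm1-/y gastrocnemius (SD, n = 4 each), a difference of -0.57 (two-sided exact permutation test, p = 0.114). In the diaphragm it was 6.42 ± 0.35 (SD, n = 4) against 5.85 ± 0.08 (SD, n = 3), a difference of -0.57 (exact permutation p = 0.0571). In the heart it was 5.34 ± 0.64 against 5.71 ± 0.39 (SD, n = 4 each; exact permutation p = 0.4). The ratio is a ratio of uniquely aligned reads, of which Rpl3 loses more, and so is no measure of the 2 proteins. Over 21 paralogue ratios tested in the 4 tissues no adjusted p was under 0.4, and the smallest p these groups allow is 0.0286. That p was met by Rpl7l1 over Rpl7 in the heart, where the log2 ratio was -1.42 ± 0.25 in WT and -1.08 ± 0.12 in Mtm1-/y (SD, n = 4 each, exact permutation test).

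**Figure D4:**
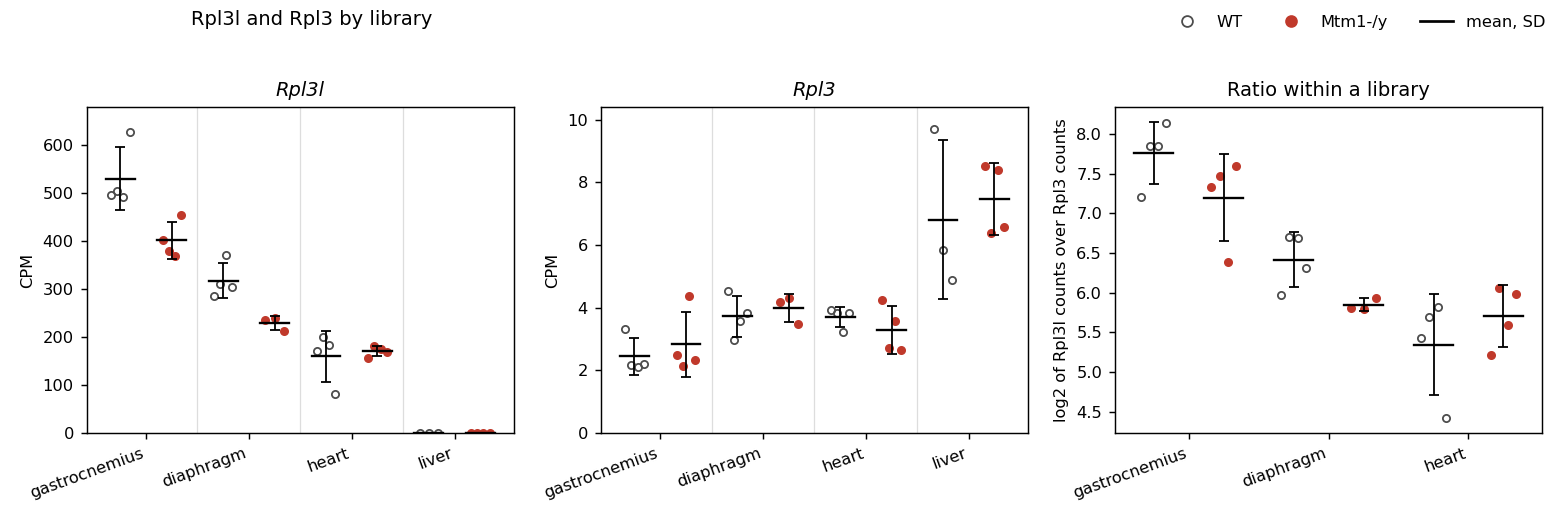
Levels of Rpl3l and Rpl3 in CPM in every library by tissue and genotype, and the log2 ratio of their counts within a library in the 3 muscles (open circles WT, red circles Mtm1-/y; bars, mean and SD; n = 3 or 4). Rpl3l runs from 628 CPM in a WT gastrocnemius to under 1 CPM in the liver, and WT heart library 4 lies below the other hearts at 82.1 CPM.

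Of the other paralogue pairs, Rps27 and Rpl39 were called in the gastrocnemius, as given above, and the members named next were not. Rpl22l1 had a log2 fold change of -0.07 and its partner Rpl22 one of 0.14 (adjusted p 0.72 and 0.17). For Rpl7l1 and Rpl7 the values were 0.01 and 0.09, for Rpl36al and Rpl36a 0.09 and -0.01, and for Rps4l and Rps4x 0.39 and 0.03. Rps27l, the partner of Rps27, stood at 0.17 (adjusted p 0.17) and Rpl10, a late-joining 60S protein, at 0.29 (adjusted p 0.16). Rpl39l and Rpl10l were at or near 0 in all tissues, with 56 and 2 counts over 30 libraries. Rps6 had 0.40 (adjusted p 0.36) and Rpsa 0.46 (adjusted p 0.077), both log2 fold changes in the gastrocnemius. Rpl27, the gene to which the study normalised its RT-qPCR, is added for that reason. Its level averaged 1.60 ± 0.102 CPM over the WT and 1.72 ± 0.566 CPM over the Mtm1-/y libraries of this muscle (SD, n = 4 each). The adjusted p was 0.74 at a log2 value of 0.12, and it was 0.64 to 0.98 in the other tissues.

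As a share of all counts the members were further apart between genotypes than in scaled levels. They took 0.320 ± 0.0137% of the counts in WT and 0.426 ± 0.0336% in Mtm1-/y gastrocnemius (SD, n = 4 each), and the groups did not overlap. Without Rpl3l the shares were 0.277 ± 0.0111% and 0.384 ± 0.0342%. The TMM factors, which correct for genes that take up much of a library, were 0.778 to 0.858 in the WT and 1.02 to 1.08 in the Mtm1-/y libraries of this muscle. In parallel the summed skeletal fibre markers were at 214000 to 257000 CPM in WT and 139000 to 150000 CPM in Mtm1-/y, with 7 of 10 lower and 2 higher. All 10 leukocyte markers tested were higher, with sums of 59.2 to 91.8 and 241 to 320 CPM. So were 6 of 9 fibroblast and 6 of 10 adipocyte markers, but the sums of both lists overlapped between the genotypes. Of 9 endothelial markers 0 were higher and 3 lower, and of 6 satellite cell and myoblast markers 1 was higher and 2 lower. Of 9 proliferation markers 1 was higher. Over all genes 14.1% were called higher and 14.9% lower. In bulk RNA more cells of a type and more RNA per cell cannot be told apart, and the part of these cells in the member changes was not tested.

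**Figure D5:**
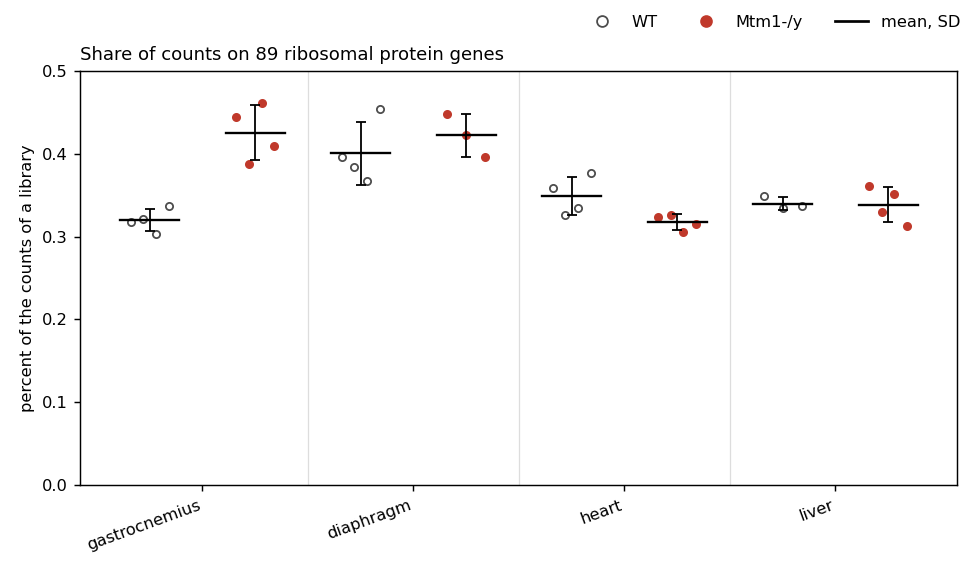
Percent of the counts of each library that fell on the 89 ribosomal protein genes, by tissue and genotype (open circles WT, red circles Mtm1-/y; bars, mean and SD; n = 3 or 4). The gastrocnemius went from 0.320 to 0.426%, while the liver stayed near 0.34% in both genotypes.

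The genes around the ribosome are given beside the shares of all genes called in the gastrocnemius, 14.1% higher and 14.9% lower (29.0% in all). Of 85 ribosome biogenesis factors 7 rose and 2 fell, 8.24% and 2.35%, both below the shares of all genes. The 3 with the smallest p were Ddx56 (0.34), Utp14a (0.42) and the nucleolar chaperone Npm1 (0.32), given as log2 fold changes. Of 20 genes of RNA polymerase I, which transcribes the ribosomal RNA, 3 rose and 3 fell, 15% each way and so near all genes, with Polr1a, its largest subunit, at -0.23, its factor Rrn3 at -0.24 and Polr2f, a shared polymerase subunit, at 0.32. Of 46 translation factors 6 rose and 9 fell, 32.6% in all, which is also near the share of all genes. Eef1a1, the elongation factor that delivers tRNA and whose mRNA has a TOP tract, rose from 125 ± 11.1 in 4 WT to 258 ± 18.6 CPM in 4 Mtm1-/y libraries (mean ± SD), by 1.06 on the log2 scale (edgeR adjusted p 8.3e-05), while the initiation factors Eif2s2 and Eif4e fell by 0.46 and 0.40 on the log2 scale.

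Of the 18 other TOP mRNA genes tested 4 rose and 1 fell, 27.8% against 29.0% of all genes. By direction these were 22.2% and 5.56%, against 14.1% and 14.9% of all genes. The intermediate filament gene Vim was at a log2 fold change of 0.71, beside Eef1a1 and Npm1. The mTORC1 list had 1 gene higher and 7 lower of 22, or 4.55% and 31.8%, against 14.1% and 14.9% of all genes. Myc, a transcription factor that drives ribosome genes, rose from 4.02 ± 0.849 in 4 WT to 9.99 ± 2.91 CPM in 4 Mtm1-/y libraries (mean ± SD), by 1.33 on the log2 scale (edgeR adjusted p 0.0027). Eif4ebp2, a repressor of cap-dependent initiation, fell by 0.59, the S6 kinase gene Rps6kb1 by 0.37 and Larp1, which binds TOP tracts, by 0.42 on the log2 scale. Of 77 genes of the mitochondrial ribosome 0 were higher and 12 lower, the latter 15.6% against 14.9% of all genes, at a median log2 fold change of -0.11. Mrpl42 fell by 0.40, Mrpl50 by 0.38 and Mrpl30 by 0.33 on the log2 scale. Of the 3 ribosomal proteins with other names none was called, and Rack1, a scaffold on the 40S subunit, averaged 326 CPM in both genotypes. No gene of these lists was called in the other tissues.

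In the heart no member was called, of 77 tested (edgeR), and 0.00656% of all genes were. DESeq2 called 0 as well. Its share of all genes was not recorded here, and the study, which used DESeq2, reported more changed genes in the heart. An unadjusted p under 0.05 was met by 10 members (13.0%, against 8.88% of all genes), all of them with values below 0. Of the 77 members 49 lay below 0 and 36.4% above it, where 49.7% of all genes lay above 0. Rplp2 was at 28.2, 27.5, 29.0 and 39.1 CPM in WT and at 18.4, 25.5, 19.8 and 19.7 CPM in Mtm1-/y hearts. The genotypes did not overlap (log2 fold change -0.58, SE 0.14, edgeR adjusted p 0.55), as in 3 of the 77 members (3.90%, against 4.17% of all genes), the others being Rpl28 and Rps20.

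Its stalk partner Rplp1 stood at 122, 126, 127 and 164 CPM in WT and at 60.7, 129, 77.1 and 78.0 CPM in Mtm1-/y hearts. Only library 2 of Mtm1-/y reached the WT range (log2 fold change -0.65, adjusted p 0.55). Rps21 had a value of -0.42 and Rps4l one of -0.96 on the same scale, both at an adjusted p of 0.55. Rpl3l was at 171, 200, 184 and 82.1 CPM in WT and at 157, 181, 174 and 168 CPM in Mtm1-/y hearts. Its log2 fold change was 0.09 (edgeR adjusted p 0.88), and -0.12 without WT library 4, the one at 82.1 CPM. The member share was 0.349 ± 0.0233% in WT and 0.318 ± 0.00962% in Mtm1-/y hearts (SD, n = 4 each).

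The difference between the genotype effects of the heart and of the gastrocnemius was tested in a fit of both tissues. It was called for 11 of 81 members (13.6%, against 19.8% of all genes), and in all 11 the effect was lower in the heart (of all genes 9.89% were called lower and 9.94% higher). The median difference was -0.28 over the members and -0.03 over all genes. The 4 with the smallest p were Rps20, at a log2 difference of -0.50 (SE 0.10), Rps21 at -0.89 (SE 0.19), Rplp2 at -1.19 (SE 0.26) and Rps19 at -0.53 (SE 0.13). Their edgeR adjusted p values were 0.0048, 0.0048, 0.0062 and 0.011. The others were Rpl39 at -0.64, Rps9 at -0.41, Rps26 at -0.48, Rpl23 at -0.51, Rplp1 at -0.79, Rps18 at -0.46 and Rps27 at -1.76, with edgeR adjusted p values of 0.014 to 0.048, and are listed after their values were seen. The first 4 and Rpl39, Rps9 and Rps26 kept the call in 20 of 20 alternatives, and Rpl23 lost it in 3, Rplp1 in 13, Rps18 in 16 and Rps27 in 18. For Rpl3l the difference was 0.49 (SE 0.27, adjusted p 0.21). The gastrocnemius libraries are in this contrast and in the one above, so that the 2 share their data.

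In the diaphragm 0 of 82 members were called by edgeR, where 0.0119% of all genes passed, and 0 by DESeq2. The share of all genes by DESeq2 was not recorded, and the study, which used DESeq2, reported more changed genes in this muscle. The median was 0.10 over the members and -0.01 over all genes, and 62 of 82 values were above 0 (75.6%, against 48.2% of all genes). Rpl3l was the sole member with an unadjusted p under 0.05 (1.22%, against 10.8% of all genes). It stood at 285, 310, 370 and 304 CPM in WT and at 236, 240 and 213 CPM in Mtm1-/y diaphragm. All 3 Mtm1-/y libraries were below the 4 WT ones (log2 fold change -0.44, SE 0.14, edgeR adjusted p 0.34). The genotypes did not overlap for 5 members (6.10%, against 9.93% of all genes), with Rpl3l and Rpl5 lower and Rpl32, Rplp0 and Rps4x higher in Mtm1-/y.

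Rps4x, a 40S protein of the X chromosome, spanned 43.7 to 46.3 CPM among WT and 49.2 to 54.1 CPM among Mtm1-/y diaphragms (log2 fold change 0.20, adjusted p 0.47). Rpl18 and Rpl32, the next by p, had values of 0.25 and 0.21 with an adjusted p of 0.55 each. Alb was at 1450, 28300 and 480 CPM in the 3 Mtm1-/y and at 22800, 15500, 251 and 16500 CPM in the 4 WT libraries. Over only the 3 libraries under 5000 CPM of Alb, 1 WT and 2 Mtm1-/y, the median was 0.16 and the log2 value of Rpl3l -0.72, given with no test because the WT arm is 1 library. The difference between the diaphragm effect and that of the gastrocnemius was called for 0 of 83 members by edgeR and by DESeq2, against 0.280% of all genes by edgeR. An unadjusted p under 0.05 was met by Rps20, Rps21 and Rps27, or 3 members (3.61%, against 12.8% of all genes). For Rpl3l that difference was -0.07 (SE 0.16).

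In the liver 0 of 82 members were called by edgeR and 0 by DESeq2, and 0% of all genes were by edgeR. Mtm1, the targeted gene, was itself not called there (log2 fold change -1.6, edgeR adjusted p 0.37). The lack of calls in the liver thus cannot be read as a lack of change. An unadjusted p under 0.05 was met by 3 members (3.66%, against 4.24% of all genes). Rps4l, a transcribed retrocopy related to Rps4x, was at 10.8, 10.8 and 12.9 CPM in WT and at 8.04, 5.88, 3.73 and 3.40 CPM in Mtm1-/y livers. Every Mtm1-/y library was below every WT library (log2 fold change -1.12, SE 0.30, edgeR adjusted p 0.97), and 5 members had no overlap in either direction (6.10%, against 5.56% of all genes), the others being Rpl29, Rpl7, Rps15a and Rps3. Rpl22l1, the paralogue of Rpl22, had a value of 0.29, Rps4x one of 0.25 and Rpl29, at under 1 CPM, one of -0.73. Rpl3l had 1 to 13 counts in each liver library and was not tested. The member share was 0.340 ± 0.00758% (SD, n = 3) in WT and 0.339 ± 0.0215% (SD, n = 4) in Mtm1-/y livers.

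Between WT tissues a smaller share of the members than of all genes was called at more than a 2-fold difference. The 3 contrasts share the 4 WT gastrocnemius libraries. Past an adjusted p of 0.05 and a 2-fold difference, 2 of 84 members differed between WT heart and WT gastrocnemius (2.38%, against 32.0% of all genes), with Rps4l higher (17.7% of all genes) and Rpl3l lower (14.3%). By adjusted p alone 36 members differed (42.9%, against 61.3%), 30 of them lower in the heart and 6 higher, where 28.7% and 32.6% of all genes were. In the diaphragm 2 members were higher past both thresholds, Rps27 and Rps4l, and 0 lower (2.38%, against 26.8% of all genes, 18.8% higher and 7.95% lower). By adjusted p alone 17 differed there (20.2%, against 54.4%), 7 higher and 10 lower, where 30.6% and 23.8% of all genes were.

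In the liver 15 members differed from the gastrocnemius past both thresholds (17.9%, against 56.7% of all genes). Of these 14 were higher (25.7% of all genes were) and 1, Rpl3l, was lower (31.0%). By adjusted p alone 55 of 84 differed (65.5%, against 79.5%), 51 higher and 4 lower, where 37.4% and 42.1% of all genes were. The median log2 difference was 0.42 over the members and -0.10 over all genes. Rpl3l fell in the order gastrocnemius 530 ± 65.4, diaphragm 317 ± 36.5 and heart 159 ± 52.6 CPM (SD, n = 4 each), with liver at 0.119 ± 0.0951 CPM (SD, n = 3). No library of one of these WT tissues reached the range of its neighbour in that order. Against the gastrocnemius the log2 difference of Rpl3l was -0.77 for diaphragm (SE 0.25, edgeR adjusted p 0.017), -1.77 for heart (adjusted p 3.4e-05) and -12.04 for liver (adjusted p 4.3e-11). The diaphragm value ran from -0.81 to -0.51 over 20 alternatives. WT diaphragm libraries 1, 2 and 4 held 22800, 15500 and 16500 CPM of Alb, against 111000 to 136000 CPM in WT liver. Library 3, with 251 CPM of Alb, had the highest Rpl3l of the WT diaphragms, at 370 CPM. The part of liver RNA in these diaphragm values was not tested.

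Rps4l had the opposite order among the called members. Its WT level averaged 0.985 ± 0.309 CPM for gastrocnemius, 3.09 ± 1.68 for diaphragm and 3.09 ± 0.491 for heart (SD, n = 4 each), and 11.5 ± 1.22 CPM for liver (SD, n = 3), with diaphragm and heart within each other's spread. The log2 difference from the gastrocnemius was 1.60 in both muscles and 3.44 in the liver (edgeR adjusted p 8.8e-07). With the single WT diaphragm library of low Alb it was 0.73 there, a value with no test. Rps27 was called higher in the diaphragm (1.53) and liver (1.76) and Rpl36al in the liver (1.56). Rpl3 was at 2.45 ± 0.585 CPM in WT gastrocnemius (SD, n = 4) and 6.82 ± 2.55 CPM in WT liver (SD, n = 3), a log2 difference of 1.40 (SE 0.24, edgeR adjusted p 8.4e-05).

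The genes whose level followed that of Rpl3l most closely were sought over the 16 gastrocnemius and heart libraries, after the mean of each tissue had been subtracted. Among 9310 genes of at least 5 CPM in both, Pearson's r was highest for Fahd1 (0.95), Rhot2 (0.94), Samm50 (0.93), Fitm1 (0.93) and Pex7 (0.92). The libraries share genotype, scaling and, in WT heart library 4, a sample that is low in Rpl3l, so these values only describe the list. Fahd1 fell by 0.38 on the log2 scale in Mtm1-/y gastrocnemius (edgeR adjusted p 0.0028) and Fitm1 by 0.24 (adjusted p 0.048), and the other 3 had adjusted p values of 0.054 to 0.077 there.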

How the data were processed

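PolyA RNA of 30 dissected organs was sequenced. The deposited values are raw counts per gene, and the authors made them from single reads of 50 bases: TruSeq Stranded mRNA libraries from 350 ng of RNA, trimming with cutadapt 1.10, STAR 2.5.3a on mm10, and htseq-count 0.6.1p1 in union mode on uniquely aligned reads, versions as in the submitters' processing notes. Columns were matched to samples by their names. Within a group of tissue and genotype no 2 libraries were alike within sampling noise (chi-square per degree of freedom of at least 11.3).

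The following was computed here in R 4.3.3. Low genes were removed by filterByExpr (count minimum 10), libraries were scaled by TMM, and the genotypes of each tissue were compared by the quasi-likelihood test of edgeR 4.0.16, adjusted over all genes. WT tissues (15 libraries in 1 fit) also needed an absolute log2 fold change over 1. Ratios had 0.5 added to each count and were tested by exact permutation of libraries. CPM levels carry the TMM factors of all 30 libraries. Windows were taken from the members' protein-coding transcripts in GENCODE M21, and for pseudogene members from their own transcripts. They were compared with all annotated transcripts, pseudogenes included, on both strands. Alternatives were DESeq2 1.42.0, its size factors in edgeR, TMM without the members, no filter, the 2-fold threshold, a fit of all libraries, voom of limma 3.58.1 with sample weights, a block for the replicate number, omission of each library in turn, and, added after seeing the data, sums with pseudogenes and the diaphragm libraries of low Alb. The fits were tested on simulated data.

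Members and lists were chosen with earlier results of these data known. Names follow a rule: Rpl3, Rpl3l, Rps6, Rpsa, the stalk genes and the paralogue pairs; per tissue up to 6 rises and 6 falls called at a mean of at least 5 CPM, or the 4 smallest p where under 2 were called; the 3 largest per direction between WT tissues; 4 per difference of effects; 3 per list; 5 genes most like Rpl3l. Replicate numbers were not taken as pairs. The labels do not say whether a number marks the same mouse in several tissues, and if it does, the fits over several tissues treat libraries of 1 mouse as independent.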

Additional observations from a re-analysis of the deposited data

Results flagged for a closer look

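In groups of 4 libraries a sample far from the others was looked for in 59 sets of values named above, and 6 were found, where chance gives about 1 in 20. Rpl3l was at 628 CPM in WT gastrocnemius library 4, against 492 to 504 CPM in the other WT libraries of that muscle. Rpl3 was at 3.32 CPM in WT gastrocnemius library 1 (others 2.11 to 2.20), at 4.38 CPM in Mtm1-/y gastrocnemius library 3 (others 2.13 to 2.49) and at 3.23 CPM in WT heart library 3 (others 3.83 to 3.94). WT heart library 4 was high in both small stalk genes, at 39.1 CPM of Rplp2 (others 27.5 to 29.0) and 164 CPM of Rplp1 (others 122 to 127).

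The genotype effect differed between the heart and the gastrocnemius, by a test of the difference itself, for 11 members (13.6%, against 19.8% of all genes). On the log2 scale, heart minus gastrocnemius, it was -0.50 for Rps20, -0.89 for Rps21, -1.19 for Rplp2, -0.53 for Rps19 and -0.64 for Rpl39. For Rps9 it was -0.41, for Rps26 -0.48, for Rpl23 -0.51, for Rplp1 -0.79, for Rps18 -0.46 and for Rps27 -1.76. Of 20 alternatives the call was lost in 3 for Rpl23, 13 for Rplp1, 16 for Rps18 and 18 for Rps27. Rplp2 had been higher in Mtm1-/y gastrocnemius and had a value below 0 in the heart.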

How the results depend on the processing

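Counts of called members in the gastrocnemius were 11 to 17 under the other tools, scalings, filters and pseudogene sums, against 15, and 1 past a 2-fold change; leaving out 1 library gave 8 to 19, with 8 without WT library 1, 9 without WT library 3 and 9 without Mtm1-/y library 1. The heart minus gastrocnemius count was 7 to 15 on leaving out 1 library, against 11, with 7 without WT gastrocnemius library 1, Mtm1-/y gastrocnemius library 1 or Mtm1-/y heart library 4. DESeq2 gave 10, of which 1 was higher in the heart. The WT heart count rose from 2 to 4 without WT gastrocnemius library 3, with a range of 2 to 4, and the WT diaphragm count was 1 with the low-Alb library alone, an arm of 1 library that tests nothing. The causes were not tested, and the share of all genes called was not recorded for any alternative. A count that moves is thus not a result about the members. With the replicate number as a block the gastrocnemius count was 11, the heart difference 9, the WT liver contrast 16 against 15, and no other count moved; 5 of 14 WT libraries correlated best with their own number in the other genotype, and between WT tissues 9 of 21 same-numbered and 10 of 63 other pairs correlated above 0.1. The calls of diaphragm, heart and liver were 0 under each alternative. At most 0.0119% of all genes passed the main edgeR test there, and the shares by DESeq2 and the other alternatives are not known. These counts of 0 thus say nothing about stability.

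Values near 0 turned sign. In the gastrocnemius, leaving out 1 library gave -0.06 to 0.41 for Rpl3, -0.16 to 0.07 for Rpl22l1, -0.04 to 0.06 for Rpl7l1, -0.08 to 0.20 for Rpl36al, -0.12 to 0.10 for Rpl36a and -0.04 to 0.09 for Rps4x, and pseudogene sums gave 0.05 for Rpl36a. Rpl3l in the heart was -0.12 to 0.21, and -0.05 by voom, Rpl3 in the liver -0.08 to 0.47, and the diaphragm minus gastrocnemius difference of Rpl3l -0.16 to 0.01, and -0.33 with the low-Alb diaphragm libraries. Rplp2 and Rps27 lost their gastrocnemius calls in 6 of 16 and 9 of 15 alternatives. Depth limits members under 1 CPM, and in the liver the Rpl3l ratio was not computed for want of counts.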

Other observations

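Some members varied together from library to library. Rplp1, Rplp2, Rps21 and Rps4l, chosen after their values were seen because all 4 headed the heart comparison, were highest in the same library in 6 of the 8 groups of tissue and genotype, both gastrocnemius groups being the exceptions, and lowest in the same library in 3. WT heart library 4 held 164, 39.1, 46.4 and 3.61 CPM of them, and Mtm1-/y heart library 2 held 129, 25.5, 38.1 and 2.93 CPM. In the Mtm1-/y diaphragm, library 2 stood at 198, 51.4, 59.2 and 3.43 CPM and library 4 at 92.0, 25.2, 43.2 and 0.858 CPM. Rplp1 had its highest library in common with Rplp2 in 8 of 8 groups, and 48 other members of at least 5 CPM had it in common in 1 to 8 groups, with a median of 3. What these libraries share was not tested.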
